A study of Homo sapiens with 6 samples.

Results

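CDC14B, its paralogue CDC14A and the genes that lie next to CDC14B on chromosome 9 (HABP4, ZNF367 and SLC35D2) were followed in HCT116 cells after knockdown of Matrin3. These 5 genes were taken by symbol from the 58884 gene IDs of the tables, and all 5 passed the filter on low counts. They were chosen by name with earlier values of the same contrast in view (counts, TPM and effective length). What is given for them, including their side of the threshold over all genes, is a description and no independent test. HCT116 is an established human colorectal cancer line, and Matrin3 is a nuclear protein that binds RNA and represses the inclusion of nearby exons. RNA was taken 48 h after the cells received either a control siRNA (siCTRL, 3 libraries) or an siRNA pool directed at Matrin3 (siMatrin3, 3 libraries), and the study describes the libraries of each group as biological triplicates. The groups thus hold 1 cell line, 1 siRNA pool and 1 time point, and what the 2 groups share is the line and the transfection itself.

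CDC14 phosphatases remove phosphate from sites that cyclin-dependent kinases have modified. In budding yeast the single Cdc14 drives exit from mitosis, whereas the human paralogues CDC14A and CDC14B have been tied to the spindle, the centrosome, the nucleolus and the DNA damage checkpoint. HABP4 is a binding protein of RNA and hyaluronan and a paralogue of SERBP1, ZNF367 is a zinc finger transcription factor, and SLC35D2 is a Golgi transporter of nucleotide sugars.

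The libraries held 4556658 to 8400412 estimated counts. MATR3, the targeted gene, was at 363, 343 and 330.2 CPM (counts scaled to a common library size) in siCTRL and at 72.4, 67.9 and 71.4 CPM in siMatrin3, a log2 fold change of -2.29 ± 0.06 (SE, n = 3 per group). Of 14334 genes tested with edgeR's quasi-likelihood test, 814 were higher (5.68%) and 743 were lower (5.18%) in siMatrin3 at a Benjamini-Hochberg adjusted p under 0.05. A limma fit of log2(TPM + 1), in which the median of all genes was -0.09, gave 31 higher and 118 lower. Summed epithelial markers ran from 1644 to 1810 CPM in siCTRL and from 1864 to 1970 CPM in siMatrin3 (7 of 9 tested, 2 past the threshold), and their part in the results was not tested. Blood markers summed to at most 1.78 CPM in any library, fibroblast markers to at most 23.2 CPM with COL1A2, COL3A1, DCN, LUM and FAP at 0 in every library, and neural markers to at most 54.0 CPM (3 of 8 tested, 1 past the threshold).

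The study tells CDC14B variants apart with oligonucleotides, and these are shown here because they mark the sequence by which the variants differ. In hg38, GENCODE release 44, CDC14B (ENSG00000081377) lies on the minus strand of chromosome 9 from 96490241 to 96619843 and has 13 annotated transcripts of 350 to 5602 bases. The standard variant, CDC14B-s, is ENST00000375241, with 14 exons, 5602 bases and a stop codon in exon 14 after 498 codons. The variant CDC14B-PTC is described in the study as CDC14B-s with 2 more exons, the first of which brings in a premature termination codon. Both added exons are annotated together in only 1 transcript, ENST00000481149, which is 1999 bases long and ends with them, so none of the 13 annotated transcripts is CDC14B-PTC itself. In the sequences below, capitals mark the bases of the forward primer and siRNA of CDC14B-s that lie past the junction of exons 12 and 13, and the bases of the CDC14B-PTC primers, all of which lie in an added exon. The reverse primer of CDC14B-s lies wholly in exon 13 of ENST00000375241 and has no capitals.
CDC14B-s forward primer: acgctattcctctcacAGTAATTC
CDC14B-s reverse primer: ccttgaagcagatctggtggtt
siCDC14B-s sense strand: gcuauuccucucacAGUAAUUCUTC
CDC14B-PTC forward primer: CAGAACACAGTAGCCATCAGG
CDC14B-PTC reverse primer: GCAGAAATAAAGCCTCTTCGC

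The forward primer for CDC14B-s crosses the junction of exons 12 and 13, with its last 8 bases in exon 13, and matched 2 of the 13 transcripts, ENST00000375241 and ENST00000375242. The sense strand of the siRNA siCDC14B-s crosses the same junction, with 11 bases in exon 13, and matched the same 2 transcripts. Both primers for CDC14B-PTC lie wholly in sequence that CDC14B-s does not have. The forward primer sits in exon 13 of ENST00000481149 (96515649 to 96515792, 144 bases), an exon also found in ENST00000412285 and ENST00000463569. That exon holds the annotated stop codon of all 3 transcripts (96515678 to 96515680), which lies 29 bases before the last exon junction in ENST00000481149 and 146 bases before it in ENST00000412285. The reverse primer sits in exon 14 (96514403 to 96514949, 547 bases), which no other annotated CDC14B transcript holds. The tables used here give 1 row per gene, so none of these variants has a count of its own. The mix of variants enters them through the length and effective length, and through TPM, which is scaled by effective length.

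**Figure D1:**
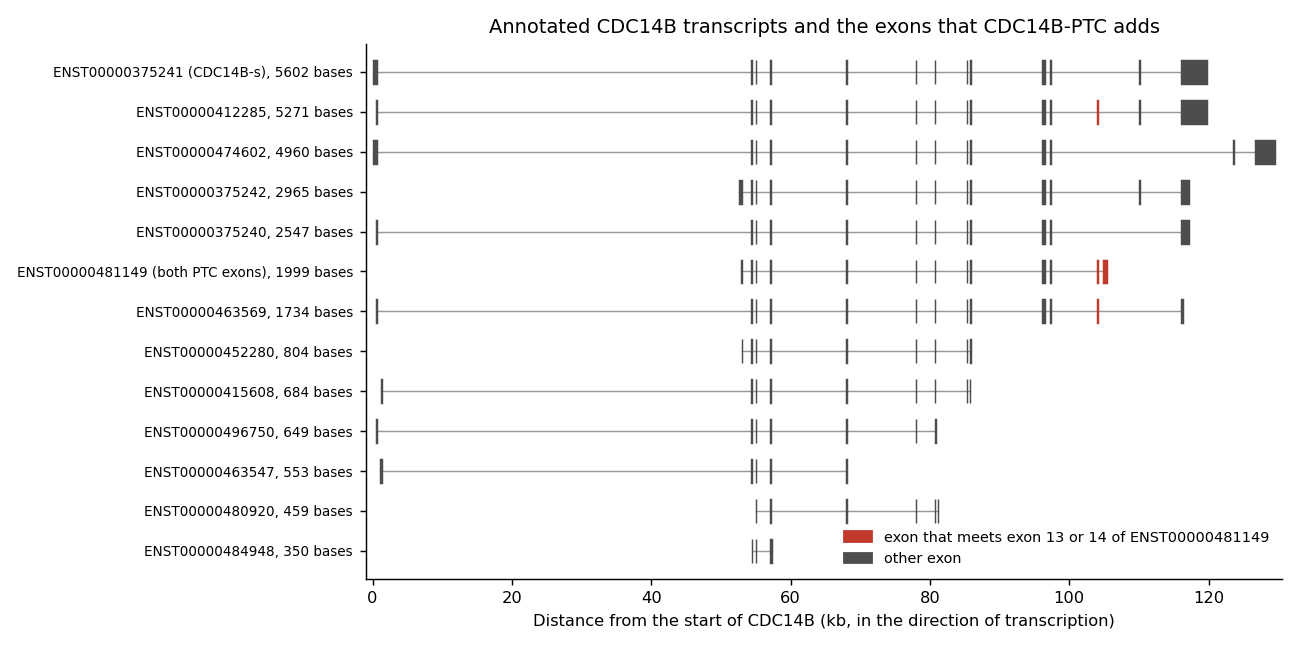
The 13 annotated transcripts of CDC14B, longest at the top, drawn by distance in kb from the start of the gene in the direction of transcription, with boxes for exons and lines for introns. Exons that meet exon 13 or 14 of ENST00000481149, those that CDC14B-PTC adds, are red: both are in ENST00000481149, and exon 13 alone is in ENST00000412285 and ENST00000463569.

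CDC14B was lower in siMatrin3 on each scale, with no overlap between the groups. Its CPM was 51.4, 43.5 and 45.3 in siCTRL, against 25.1, 21.8 and 21.4 in siMatrin3. The means were 46.7 ± 4.13 and 22.7 ± 2.05 CPM (SD, n = 3), so siMatrin3 stood at 48.7% of siCTRL. The fitted log2 fold change was -1.02 ± 0.10 (SE). Groups of CPM that do not overlap were found for 29.8% of all tested genes, and CDC14B was among the 10.9% past the edgeR threshold in either direction. Behind these values were 237.5 to 370 estimated counts in siCTRL and 125 to 183 in siMatrin3. Counting alone would give a coefficient of variation of 6.0% and 8.32% in the 2 groups, against measured values of 8.84% and 9.02%.

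The effective length of CDC14B differed between the groups as well. RSEM's effective length of a gene is the mean over its transcripts, weighted by their estimated abundance, of the number of positions at which a read can start. It was 3566, 3555 and 3635 bases in siCTRL and 3093, 2812 and 2902 bases in siMatrin3, so every siMatrin3 library was below every siCTRL library. The means were 3585 ± 43.1 and 2936 ± 144 bases (SD, n = 3), a difference of -650 bases or -18.1%. By its construction, a lower value is an estimated mix with more of the shorter transcripts, and all 6 values lie well under the 5602 bases of CDC14B-s. Which transcripts took part cannot be read from a gene table.

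Across the 12394 tested genes of more than 1 transcript, the effective length changed by a median of -0.197%, and the median size of the change was 5.04%. Groups of effective length without overlap were found for 10.9% of these genes, and a shorter length in every siMatrin3 library for 6.27%. A shortening of at least the size seen for CDC14B was found for 621 genes (5.01%), of which 257 (2.07% of all) had groups that did not overlap. Since this measure helped to choose CDC14B, its place among these genes is a description.

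Per length, the difference in CDC14B was smaller than in counts. Its TPM, a level scaled by effective length within each library, was 14.78, 12.35 and 13.01 in siCTRL, against 7.88, 7.31 and 6.86 in siMatrin3. TPM groups did not overlap for 23.9% of all tested genes. The means were 13.4 ± 1.26 and 7.35 ± 0.51 TPM (SD, n = 3), a difference of -45.1% against -51.3% for CPM. CPM and TPM also differ in their scaling between libraries, so the gap between these values is not a measure of length alone. When each library's effective length was entered into the count model as an offset, the log2 fold change was -0.75, with CDC14B still past the threshold.

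**Figure D2:**
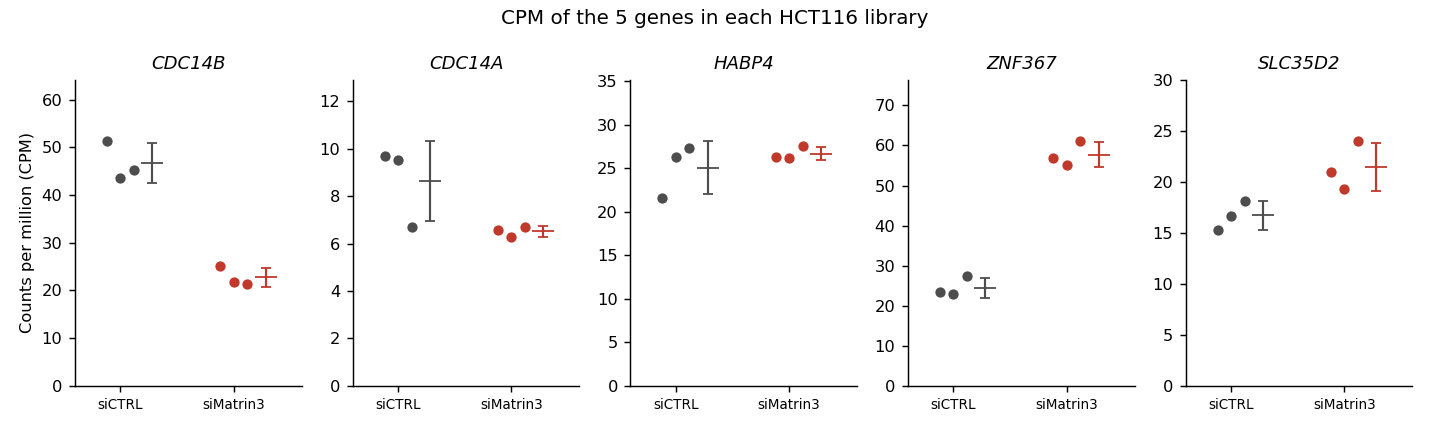
CPM, on axes that start at 0, of the 5 genes in each library, with siCTRL in grey and siMatrin3 in red. Points are libraries and the bar beside them is the mean ± SD (n = 3). The groups do not overlap for CDC14B, ZNF367 and SLC35D2, as for 29.8% of all tested genes, and they overlap for CDC14A and HABP4.

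CDC14A, the other human CDC14 phosphatase, is on chromosome 1 (100345001 to 100520277, plus strand, 14 transcripts) and had the lowest counts of the 5 genes. Its CPM was 9.71, 9.52 and 6.69 in siCTRL, against 6.58, 6.27 and 6.71 in siMatrin3. The third siCTRL library thus lay among the siMatrin3 libraries, and the groups overlapped. The log2 fold change of -0.41 ± 0.20 (SE, n = 3) did not pass the threshold. On 35.7 to 81.0 estimated counts per library, counting alone gives a coefficient of variation of 14.3% in siCTRL and 15.5% in siMatrin3. The measured values were 19.6% and 3.47%. What size of change could be detected at this depth was not tested. Leaving out the third siCTRL library gave -0.56, also not past the threshold.

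The TPM of CDC14A was 3.14, 3.52 and 2.21 in siCTRL, against 2.78, 2.05 and 2.98 in siMatrin3, with overlap. Its effective length was 3164, 2732 and 3165 bases in siCTRL and 2293, 2866 and 2096 bases in siMatrin3. The mean difference of -602 bases was near that of CDC14B in size, but the second siMatrin3 library lay above the second siCTRL library and the SDs were 250 and 400 bases. Whether CDC14A and CDC14B differ in fold change was not tested.

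The ratio of the TPM of CDC14B to that of CDC14A was 4.71, 3.51 and 5.89 in siCTRL, against 2.83, 3.57 and 2.30 in siMatrin3. CDC14B remained the higher of the 2 in each library, and the ratios of the groups overlapped through the second libraries. CDC14C, a retrogene of the same family, had 2.40 estimated counts in 1 siCTRL library, 1.19 in 1 siMatrin3 library and 0 in the other 4, and was not tested.

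HABP4 (96450169 to 96491336, plus strand, 3 transcripts) faces CDC14B tail to tail and showed no such difference. Its CPM was 21.6, 26.3 and 27.3 in siCTRL, against 26.3, 26.1 and 27.6 in siMatrin3. The first siCTRL library was the low one, and the other 5 lay close together. The log2 fold change was 0.08 ± 0.11 (SE, n = 3), not past the threshold. The TPM means were 9.77 ± 1.2 and 9.67 ± 0.21 (SD), and the effective length means were 2635 ± 20.3 and 2620 ± 8.64 bases, both with overlap.

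The spans of HABP4 and CDC14B share 1096 bases on opposite strands. Those bases are exonic in only 1 CDC14B transcript, ENST00000474602, and in all 3 HABP4 transcripts. Whether reads were counted by strand is not given in the sources used here, so reads from those 1096 bases may be divided between both genes by estimate. CDC14B over HABP4 in TPM went from 1.39 ± 0.31 in siCTRL to 0.761 ± 0.055 in siMatrin3 (SD, n = 3). The groups did not overlap, as was already so for the TPM of CDC14B alone. How often ratios of other genes separate the groups was not examined, so the ratio is a description.

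ZNF367 (96385941 to 96418370, minus strand) lies 71.9 kb past the end of CDC14B in the direction of transcription, and was higher in siMatrin3. Its CPM was 23.3, 22.8 and 27.3 in siCTRL, against 56.9, 55.0 and 61.1 in siMatrin3. The lowest siMatrin3 library was thus well above the highest siCTRL library, and the means of 24.5 ± 2.46 and 57.7 ± 3.13 CPM (SD, n = 3) put siMatrin3 at 236% of siCTRL. The log2 fold change was 1.24 ± 0.09 (SE). Of the 5 genes, which were chosen with this contrast in view, CDC14B and ZNF367 were past the threshold, beside 10.9% of all tested genes. CPM groups without overlap were found for 29.8% of tested genes.

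With a single annotated transcript of 3687 bases, ZNF367 had the same effective length, 3638 bases, in all 6 libraries. In siCTRL its TPM was 6.59, 6.32 and 7.84, and in siMatrin3 it was 15.2, 14.3 and 15.7. The siMatrin3 mean was thus 218% of siCTRL in TPM, against 236% in CPM, at an unchanged effective length. TPM groups without overlap were found for 23.9% of tested genes. The pseudogene NSA2P7, which lies in the span of ZNF367 on the opposite strand, had at most 1.58 CPM in any library.

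SLC35D2 (96313444 to 96383711, minus strand, 6 transcripts) is the next gene beyond ZNF367, 106.5 kb from CDC14B. Its CPM was 15.3, 16.7 and 18.1 in siCTRL, against 21.0, 19.3 and 24.0 in siMatrin3. Every siMatrin3 library was above every siCTRL library, though by a narrow gap, and 29.8% of tested genes had CPM groups without overlap. The log2 fold change of 0.36 ± 0.12 (SE, n = 3) did not pass the threshold. With the replicate number as a block the value was 0.35 ± 0.11, and SLC35D2 then passed the threshold.

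Per length, SLC35D2 did not separate the groups. Its TPM was 12.2, 11.1 and 17.2 in siCTRL, against 15.9, 13.5 and 16.1 in siMatrin3, and the highest value of all was a siCTRL library. That library also had the shortest effective length of the 6, 1101 bases, against 1288 and 1514 bases in the other siCTRL libraries and 1281, 1355 and 1395 bases in siMatrin3. The gene ENSG00000285269 shares 38615 bases of its span with SLC35D2 on the same strand. It had at most 1.23 CPM, and reads of both genes may be divided by estimate.

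**Figure D3:**
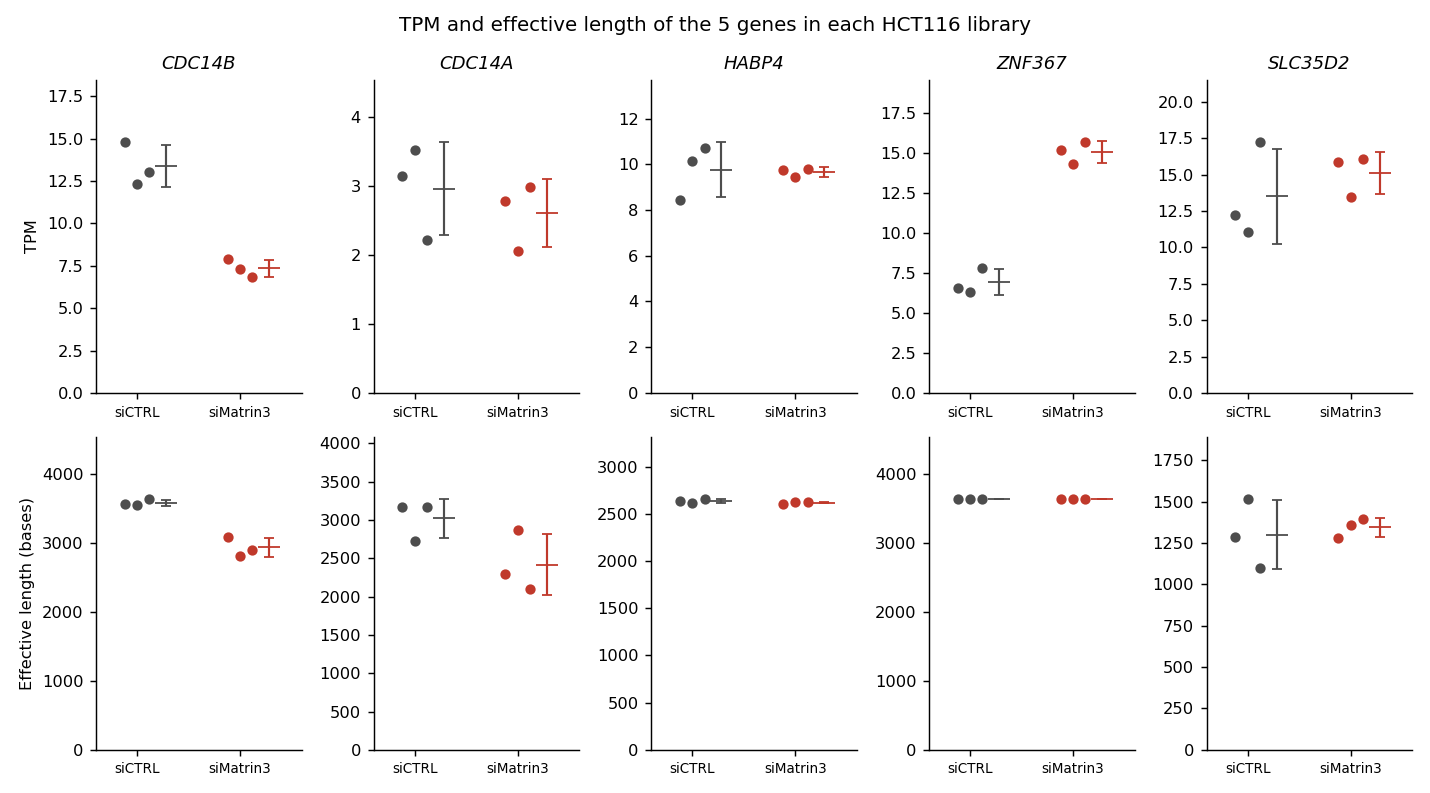
TPM (upper row) and effective length in bases (lower row), on axes that start at 0, of the 5 genes in each library, with siCTRL in grey and siMatrin3 in red. Points are libraries and the bar is the mean ± SD (n = 3). CDC14B is lower in both rows, ZNF367 is higher in TPM at an effective length fixed at 3638 bases, and the other 3 genes overlap in both rows.

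The order of the 5 genes by TPM differed between the groups. In siCTRL it was SLC35D2 (13.5 ± 3.26), CDC14B (13.4 ± 1.26), HABP4 (9.77 ± 1.2), ZNF367 (6.92 ± 0.81) and CDC14A (2.96 ± 0.67; SD, n = 3). SLC35D2 and CDC14B overlapped there, and every other pair of neighbours in the order was separated. In siMatrin3 the order was SLC35D2 (15.15 ± 1.45), ZNF367 (15.05 ± 0.69), HABP4 (9.67 ± 0.21), CDC14B (7.35 ± 0.51) and CDC14A (2.60 ± 0.49), with overlap only between SLC35D2 and ZNF367. The ratio of ZNF367 to CDC14B in TPM was 0.446, 0.512 and 0.603 in siCTRL, against 1.93, 1.96 and 2.28 in siMatrin3.

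Genes farther out on chromosome 9 were examined as a list set by position, with the 5 genes left out. Within 2 Mb of CDC14B, 26 of 101 annotated IDs could be tested, and 2 were higher and 1 was lower in siMatrin3, which is near the share of 10.9% over all genes. Their log2 fold changes ran from -0.76 to 0.52 with a median of 0.08, against -0.001 over all genes. Over the 583 tested genes of chromosome 9 the median was 0.004, with 34 higher and 32 lower. None of the 26 reached the size of the difference of CDC14B or ZNF367, which is a description, as those 2 genes were chosen with this contrast in view.

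ANP32B, which encodes an acidic histone chaperone, was at 173, 179 and 169 CPM in siCTRL and at 235, 216 and 226 CPM in siMatrin3. It rose by a log2 fold change of 0.38 ± 0.05 (SE, n = 3; edgeR adjusted p = 0.00088), and it passed with each library left out in turn. ANP32B also passed with effective length as an offset (edgeR adjusted p = 0.0277), but not on log2(TPM + 1). CTSV, a lysosomal cysteine protease, fell from 10.7 ± 0.72 to 6.30 ± 1.45 CPM (SD, n = 3; log2 fold change -0.76 ± 0.20; edgeR adjusted p = 0.0278). TDRD7, which encodes a Tudor domain protein, was raised from 9.06 ± 1.08 to 13.1 ± 0.996 CPM (0.52 ± 0.16 on the log2 scale; edgeR adjusted p = 0.04996), on the edge of the threshold. CTSV passed without the second siMatrin3 library but with none of the other 5 left out, and TDRD7 passed with no library left out, with edgeR adjusted p up to 0.104 and 0.166.

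The nearest tested genes on either side did not pass the threshold. PRXL2C, 19.7 kb upstream of CDC14B, was at 12.1 ± 1.97 CPM in siCTRL and 14.2 ± 1.6 CPM in siMatrin3 (log2 fold change 0.21 ± 0.16; edgeR adjusted p = 0.455). ERCC6L2, a helicase gene 369 kb away on the side of SLC35D2, was at 35.5 ± 1.39 and 33.4 ± 2.46 CPM (log2 fold change -0.08 ± 0.09; edgeR adjusted p = 0.628; SD, n = 3).

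**Figure D4:**
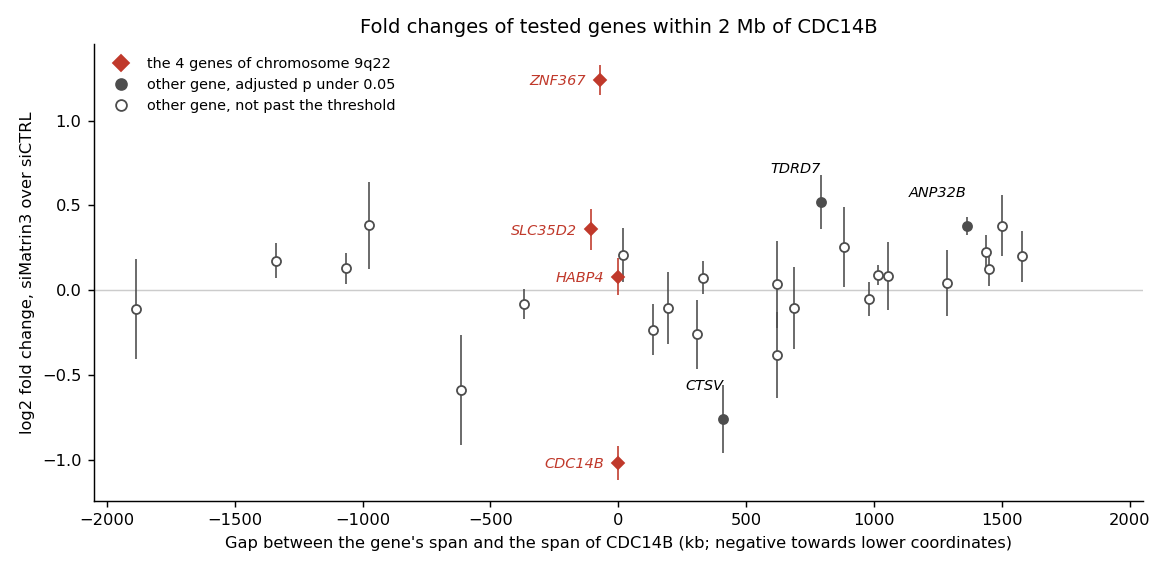
Log2 fold change, siMatrin3 over siCTRL, of tested genes within 2 Mb of CDC14B against the gap in kb between each gene's span and that of CDC14B, with negative gaps towards SLC35D2. Error bars are SE. Red diamonds are CDC14B, HABP4, ZNF367 and SLC35D2, filled circles passed the edgeR threshold and open circles did not. CDC14B at -1.02 and ZNF367 at 1.24, both chosen with this contrast in view, lie outside the range of -0.76 to 0.52 of the genes drawn as circles.

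Genes tied to CDC14 in mitosis moved in both directions. All 28 of the listed regulators and substrates were tested, of which 2 were higher and 4 were lower, with a median log2 fold change of 0.00. Over all tested genes 10.9% passed the threshold (5.68% higher and 5.18% lower), with a median of -0.001. KIF23, the kinesin of the central spindle, was at 132, 123 and 116 CPM in siCTRL and at 75.6, 71.9 and 69.9 CPM in siMatrin3. It fell by 0.77 ± 0.07 on the log2 scale (SE, n = 3; edgeR adjusted p = 3.48e-05), the largest change of the list. CDKN1B, the cyclin-dependent kinase inhibitor p27, fell from 39.8 ± 2.46 to 28.9 ± 2.75 CPM (SD, n = 3; edgeR adjusted p = 0.00668). Both passed with each library left out in turn. CDKN1B did not pass with effective length as an offset (edgeR adjusted p = 0.0706) or on log2(TPM + 1), whereas KIF23 passed in both.

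Other genes of that list past the threshold showed smaller changes. CDC25B, a phosphatase that activates cyclin-dependent kinases, had a log2 fold change of 0.20 ± 0.06 (SE, n = 3; edgeR adjusted p = 0.0353). INCENP of the chromosomal passenger complex was at -0.24 ± 0.07 (edgeR adjusted p = 0.0415), and CDC25A, a paralogue of CDC25B, at -0.30 ± 0.09 (adjusted p = 0.045). Each of these 3 passed with only 1 library left out, which was the third siMatrin3 library for CDC25B and CDC25A and the first siMatrin3 library for INCENP. With each of the other 5 libraries left out in turn, the edgeR adjusted p ran up to 0.178. The value of INCENP turned to 0.03 with effective length as an offset.

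Of 26 phosphatase genes of mitotic exit other than the CDC14 genes, 25 were tested, 3 were higher and 1 was lower, against 10.9% of all genes in either direction, with a median of 0.01. ARPP19, an inhibitor of the phosphatase PP2A, fell from 224 ± 4.4 to 182 ± 2.50 CPM (SD, n = 3; edgeR adjusted p = 0.00254). PPP2R5A, a regulatory subunit of PP2A, rose from 39.6 ± 2.51 to 52.4 ± 0.53 CPM (edgeR adjusted p = 0.00587), and both passed with each library left out. Neither ARPP19 nor PPP2R5A passed with effective length as an offset (edgeR adjusted p = 0.26 and 0.112) or on log2(TPM + 1). PPP1R8, a nuclear regulator of PP1, rose by 0.31 ± 0.07 on the log2 scale (SE; edgeR adjusted p = 0.0161) and passed in 2 of 6 fits with a library left out, those without the first siCTRL or the second siMatrin3 library. PPP1CC, a catalytic subunit of PP1, rose by 0.21 ± 0.06 (edgeR adjusted p = 0.0479) and passed only without the second siCTRL library.

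The dual-specificity phosphatases, the wider family to which the CDC14 genes belong, gave 2 higher and none lower of 33 tested among 37 listed, a share below the 10.9% of all genes, with a median of -0.05. DUSP23 rose from 8.79 ± 0.44 to 13.3 ± 0.94 CPM (SD, n = 3; edgeR adjusted p = 0.0232). PTP4A3, a membrane-bound phosphatase of the same class, rose from 4.07 ± 1.10 to 7.62 ± 0.26 CPM (edgeR adjusted p = 0.0358). DUSP23 passed without the second siCTRL or the second siMatrin3 library and PTP4A3 without the second siCTRL library only, with edgeR adjusted p up to 0.0954 otherwise. SSH3, a cofilin phosphatase, at 0.38 ± 0.13 and DUSP6, an ERK phosphatase, at -0.23 ± 0.08 did not pass (SE, n = 3; edgeR adjusted p = 0.0739 and 0.0792). With the replicate number as a block 6 genes of this list passed, DUSP6 and SSH3 among them.

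Among SLC35 transporters other than SLC35D2, 18 of 19 were tested, 2 were higher and 1 was lower, beside 10.9% of all genes, with a median of 0.09. SLC35A4 fell from 65.5 ± 6.33 to 48.7 ± 5.12 CPM (SD, n = 3; edgeR adjusted p = 0.0121) and did not pass without the third siCTRL library (edgeR adjusted p = 0.0712). SLC35A3, a transporter of UDP-N-acetylglucosamine, rose from 33.3 ± 1.68 to 41.8 ± 3.47 CPM (edgeR adjusted p = 0.0275). SLC35E1 rose from 63.3 ± 1.95 to 75.3 ± 2.62 CPM (edgeR adjusted p = 0.0275). SLC35A3 passed without the first siCTRL or the second siMatrin3 library, SLC35E1 without the second siMatrin3 library only, and neither with another library left out. SLC35A2, the transporter of UDP-galactose, was at 0.25 ± 0.10 on the log2 scale (SE; edgeR adjusted p = 0.132).

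Of 16 genes listed around HABP4, its paralogue and reported partners, 15 were tested, 3 were higher and none was lower, beside 5.68% of all genes higher and 5.18% lower, with a median of 0.12. SERBP1, the paralogue, is a ribosome-associated protein that binds mRNA, and it rose from 474 ± 11.9 to 577 ± 14.2 CPM (SD, n = 3; edgeR adjusted p = 0.00265). MEF2C, a transcription factor, rose from 17.4 ± 2.08 to 26.3 ± 1.67 CPM (edgeR adjusted p = 0.0055). Both passed with each library left out. Neither SERBP1 nor MEF2C passed with effective length as an offset (edgeR adjusted p = 0.125 and 0.467) or on log2(TPM + 1). PRMT1, an arginine methyltransferase, rose by 0.21 ± 0.06 on the log2 scale (SE; edgeR adjusted p = 0.0362), and passed only without the second siCTRL library among the fits that left 1 out. TOPORS, a ubiquitin and SUMO ligase, was at 0.24 ± 0.09 (edgeR adjusted p = 0.101). The replicate block gave 5 genes of this list past the threshold.

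The profile of CDC14B over the 6 libraries was set against those of 11456 genes whose mean reached 5 CPM, by the root mean square difference of log2 CPM after each gene was centred on its siCTRL mean. The nearest was ERLIN1, a protein of the endoplasmic reticulum on chromosome 10, at a difference of 0.047. ERLIN1 was at 84.6, 72.4 and 80.5 CPM in siCTRL and at 40.5, 36.9 and 36.0 CPM in siMatrin3, so it too had its highest siCTRL value in the first library and its lowest in the second. SPC25 of the NDC80 kinetochore complex followed at 0.114, then ABCA5 at 0.118, ZNF154 at 0.126 and an unnamed gene on chromosome 21, ENSG00000274333, at 0.142. Their log2 fold changes ran from -1.15 to -0.90.

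For ZNF367 the nearest profiles were less close. TECPR2 stood at 0.178, DESI2 at 0.197, MTFMT at 0.208, LHPP at 0.210 and DENND5B at 0.240, and their log2 fold changes ran from 0.99 to 1.13. None of these 10 genes is on chromosome 9. The likeness rests on the group difference and the spread of 6 shared libraries and is given as a description.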

How the data were processed

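Total RNA of HCT116 cells was depleted of ribosomal RNA and sequenced in single-end reads of 50 cycles per the study's methods, whereas the labels name a stranded mRNA kit. The authors used cutadapt, TopHat and RSEM on hg19 per the labels. Neither the annotation release nor the strand setting is given in those sources. The deposited tables give, per gene, an expected count (an estimate that need not be whole, without normalization between libraries), TPM scaled by the authors within each library, and the length and effective length in bases. The deposited FPKM column was not used.

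Expected counts were rounded, filtered with filterByExpr (minimum count 10, minimum total 15), scaled by TMM and fitted with edgeR 4.0.16 in R 4.3.3 (quasi-likelihood test, two-sided, Benjamini-Hochberg adjustment over 14334 genes at 0.05). CPM uses the same scaling. Each SE was taken as the log2 fold change over the root of its F statistic. DESeq2 1.42.0 and limma 3.58.1 served as alternatives, and scripts were tested on simulated data. Total counts of 4556658 to 8400412 set the precision. Positions are those of GENCODE 44 on hg38, matched by ID (58472 IDs, 99.3%), and oligonucleotides of the study were matched to its transcripts.

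The 5 genes and the lists were chosen with earlier results of these data known. Named besides the 5 are MATR3, the 4 genes of lowest p in each list and any other gene of a list past the threshold. Also named by this rule are tested neighbours past the threshold and the nearest on each side, the 5 closest profiles and genes that overlap the 5. The values of 1 gene that this rule names are not reported here. Same-numbered libraries deviated together (r = 0.13 in all 3 pairs, and -0.10 to -0.04 for other pairs), so replicate numbers were taken as pairs in the blocked alternative. Deviations were taken from the mean of each group, so positive values for same numbers by themselves push the others below 0. No pair of replicates was alike to within counting error (chi-square over its degrees of freedom, 2.67 to 4.4).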

Additional observations from a re-analysis of the deposited data

How the results depend on the processing

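CDC14B and ZNF367 passed the threshold in all 15 alternatives and CDC14A and HABP4 in none, while SLC35D2 passed with the replicate block alone. Leaving out 1 library at a time gave log2 fold changes of -1.10 to -0.96 for CDC14B, 1.18 to 1.33 for ZNF367, 0.27 to 0.42 for SLC35D2 and -0.56 to -0.31 for CDC14A, and a CDC14B effective length difference of -729 to -588 bases. On log2(TPM + 1) and log2(TPM + 0.1) the values were -0.78 and -0.85 for CDC14B, -0.13 and -0.17 for CDC14A, 1.02 and 1.12 for ZNF367 and 0.17 and 0.18 for SLC35D2. On the second scale the median of all genes was -0.105. With effective length as an offset they were -0.75 for CDC14B and -0.09 for CDC14A, and INCENP reversed to 0.03. Over all genes, the higher and lower counts were 31 and 118 on log2(TPM + 1), 30 and 102 on log2(TPM + 0.1), 99 and 105 with the length offset and 548 and 463 with DESeq2. They were 1203 and 1056 with the replicate block, and 350 to 631 and 357 to 625 with 1 library left out.

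Counts past the threshold in the lists were 0 or 1 on both TPM scales and with the length offset, including 0 within 2 Mb on TPM and 1 with the offset. DESeq2 gave 1 gene within 2 Mb, 0 dual-specificity phosphatases and 1 SLC35 gene, and the 5 Mb window held 9. Dual-specificity phosphatases numbered 4 without a count filter and 6 with the replicate block, which gave 5 for the HABP4 list and changed no other count by over 1.5 times. Leaving out 1 library gave 1 to 2 genes within 2 Mb, 2 to 4 CDC14-linked genes, 2 to 3 mitotic exit phosphatases, 0 to 3 dual-specificity phosphatases, 0 to 3 SLC35 genes and 2 to 4 of the HABP4 list. The cause of these differences was not tested. Of 405 values of the genes named from the lists and from within 2 Mb, 265 kept their side of the threshold. Direction was not kept in all of these. ERCC6L2, past the threshold in neither fit, went from -0.08 to 0.07 with effective length as an offset. MATR3 and the closest profiles were not part of this count. Estimated counts of 35.7 to 81.0 limit what can be said of CDC14A.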
